A study of Rattus norvegicus with 72 samples.

Results

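Glomeruli of the remaining kidney were examined 48 h after right nephrectomy, set against glomeruli taken 48 h after sham surgery. The comparison holds 8 of the 72 libraries of the series, 4 from nephrectomy rats (replicates 1 to 4) and 4 from sham rats (replicates 1 to 4), chosen by their labels for tissue, surgery and time, and covers all genes. Every animal was an adult male Sprague-Dawley rat, an outbred strain, fed normal chow. In the nephrectomy group the vessels and ureter of the right kidney were tied and that kidney was taken out. In the sham group the right renal pedicle was only dissected free and the wound closed. Glomeruli were dissected by hand from the left kidney, and their RNA was amplified before sequencing. Neither the number of rats behind the 4 libraries of a group nor the number of glomeruli pooled in each is stated, so a p-value here reflects library-to-library spread, some of which may be technical. The other groups used below are glomeruli at 24 and 72 h, S1 tubules (the earliest proximal tubule segment) at 48 h and whole left kidney at 48 h, each after nephrectomy or sham surgery.

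A glomerulus is a tuft of capillaries in which plasma is filtered across fenestrated endothelium, a basement membrane and the slit diaphragms between podocyte foot processes, with mesangial cells holding the loops together. After loss of a kidney, flow and filtration per remaining glomerulus are known to increase within days, and the tuft and tubules enlarge. Surgery is also a stress that raises circulating glucocorticoid hormone, and kidney cells carry a circadian clock that this hormone can shift.

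The 8 libraries held 9.09 to 10.96 M gene counts (M, 1e+06 counts) after nephrectomy and 5.89 to 12.53 M after sham surgery. Of the uniquely placed reads, 29.5 to 33.8% fell in genes after nephrectomy and 21.4 to 40.1% after sham surgery, and mitochondrial genes took 15.8 to 21.3% and 14.9 to 19.8% of gene counts. Exact two-sided permutation tests of 5 such library measures gave p of 0.314 to 0.971, where the smallest p that the 70 splits of 8 libraries allow is 0.0286. The marker Nphs1 (nephrin, the main protein of the slit diaphragm) had 1685, 2513, 2164 and 1293 CPM (counts per 1e+06 gene counts) after nephrectomy, against 1306, 1471, 1260 and 2253 CPM after sham surgery, so all 8 libraries carried it at a high level. The 12 podocyte markers summed to 17200 to 22200 CPM after nephrectomy, against 14200 to 23700 CPM after sham surgery. The 12 proximal tubule markers summed to 1840 to 3260 CPM after nephrectomy and 1330 to 2740 CPM after sham surgery, of which Lrp2 (megalin) alone made up 1747 to 3151 and 1226 to 2675 CPM. The means of the other 11 lay between 3.27 and 22.1 CPM after nephrectomy and between 2.72 and 25.3 CPM after sham surgery. In bulk samples like these, fewer cells of a type and less RNA per cell cannot be told apart. The sham library numbered 2 at 24 h carried proximal tubule rather than podocyte markers, against its label (mean log2 CPM of 9.71 and 3.01), and was left out of the fits unless stated. Nephrectomy replicate 3 of 72 h was shallow, with 2.64 M gene counts and 2.92% of uniquely placed reads in genes. Its mean log2 CPM was 5.49 for proximal tubule and 7.80 for endothelial markers. The other nephrectomy libraries of 72 h had 3.33 to 4.17 and 9.08 to 9.35. It was kept, so the 72 h values below include it. It also enters the spread estimate behind the SE and p-values at 48 h. The 48 h test was run without it only within the 48 h libraries alone.

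No gene passed the test between nephrectomy and sham glomeruli at 48 h (0 of 22405, 0%), by edgeR's quasi-likelihood test with Benjamini-Hochberg adjustment at a threshold of 0.05. At an unadjusted p under 0.05 there were 305 genes (1.36%), 67 higher (0.299%) and 238 lower (1.06%) after nephrectomy. DESeq2 called 2 genes, Fam111a and a locus named U6, and limma on voom weights or on the authors' RPKM values called 0, with 1005, 162 and 268 genes at an unadjusted p under 0.05. Within the 8 libraries alone edgeR called 0 of 14620 genes, with 415 at an unadjusted p under 0.05. The biological coefficient of variation, the typical spread of a gene between libraries of a group, was 0.318 among the 48 h libraries, 0.537 at 24 h and 0.714 at 72 h. Over the 23 glomerulus libraries of all times, which the main 48 h test uses, it was 0.625 (22405 genes, against 14620 at 48 h alone). The median log2 fold change of nephrectomy over sham was -0.05 over all genes and 0.03 over the 10723 genes with a mean of at least 5 CPM. Every gene described below, unless a call is named, did not pass, and its values are given with the standard error (SE) of the fit over 23 glomerulus libraries.

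Genes that glucocorticoid hormone is known to induce had the second lowest median of the 36 gene lists examined, after the erythroid genes of red blood cells. Of its 15 measured members 0 passed the test, 14 lay below 0 and 4 had an unadjusted p under 0.05 (the share over all genes was 1.36%), and their median log2 fold change was -0.35, against -0.05 over all genes. Zbtb16 (PLZF, a zinc finger repressor strongly induced by glucocorticoid) had 9.28, 13.4, 2.89 and 2.16 CPM in nephrectomy libraries 1 to 4, against 119, 28.6, 42.5 and 15.3 CPM in sham libraries 1 to 4. No nephrectomy library reached the lowest sham library, and the means were 6.92 ± 5.35 and 51.3 ± 46.4 CPM (SD, n = 4 each). The log2 fold change of Zbtb16 was -2.89 ± 0.75 (SE). Groups without overlap and with nephrectomy lower were found for 288 genes, 1.29% of those tested, and for 171 with nephrectomy higher (0.763%). Among genes with a mean of at least 5 CPM these were 101 (0.942%) and 112 (1.04%).

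Fkbp5, a co-chaperone that sits in the glucocorticoid receptor complex and is itself a target of the receptor, had 75, 50.1, 63.3 and 41.2 CPM after nephrectomy, against 177, 63.7, 126 and 94.5 CPM after sham surgery. Sham replicate 2 lay inside the nephrectomy range, and the log2 fold change was -1.01 ± 0.35. Klf15, a Krüppel-like factor that supports podocyte differentiation, had 4.43, 8.78, 9.83 and 5.12 CPM after nephrectomy, against 30.2, 10.5, 33.5 and 7.58 CPM after sham surgery. Its high libraries were sham replicates 1 and 3, while sham replicates 2 and 4 were close to the nephrectomy libraries (log2 fold change -1.53 ± 0.45). Per1, a clock repressor with glucocorticoid response elements, had 53.7, 103, 62.8 and 51.6 CPM after nephrectomy, against 192, 60.7, 178 and 116 CPM after sham surgery (-1.01 ± 0.46). Again sham replicates 1 and 3 stood highest and sham replicate 2 was among the nephrectomy values. Since libraries numbered 1 and 2 deviated together, as did 3 and 4, the ratio of group means was also taken within each pair of numbers. Its log2 was -2.70 (numbers 1 and 2) and -3.52 (3 and 4) for Zbtb16, -0.95 and -1.08 for Fkbp5, and -1.62 and -1.46 for Klf15.

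Members with smaller differences were Ddit4, a stress-induced mTOR inhibitor (-0.65 ± 0.49), Hsd11b1, the enzyme that regenerates active hormone (-0.64 ± 0.50), Cdkn1a, a cyclin-dependent kinase inhibitor (-0.77 ± 0.45) and Dusp1, a phosphatase of MAP kinases (-0.35 ± 0.35). Klf9, another Krüppel-like target, was at -0.23 ± 0.44. Sgk1, the sodium transport kinase, had 773, 662, 753 and 817 CPM after nephrectomy, against 670, 957, 646 and 869 CPM after sham surgery, with wide overlap (-0.06 ± 0.35, positive in the fit without sham replicate 2 and with a tubule marker covariate). Pdk4, a kinase that shuts off pyruvate oxidation, was the 1 member above 0 (0.29 ± 0.46). Tsc22d3 (GILZ), another classical target, shares its symbol between 2 gene IDs and was kept out of the list. Under its ID ENSRNOG00000056135 it had 121, 181, 101 and 124 CPM after nephrectomy, against 276, 165, 231 and 207 CPM after sham surgery. Sham replicate 2 lay inside the nephrectomy range, and values of the other ID are not given here.

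**Figure D1:**
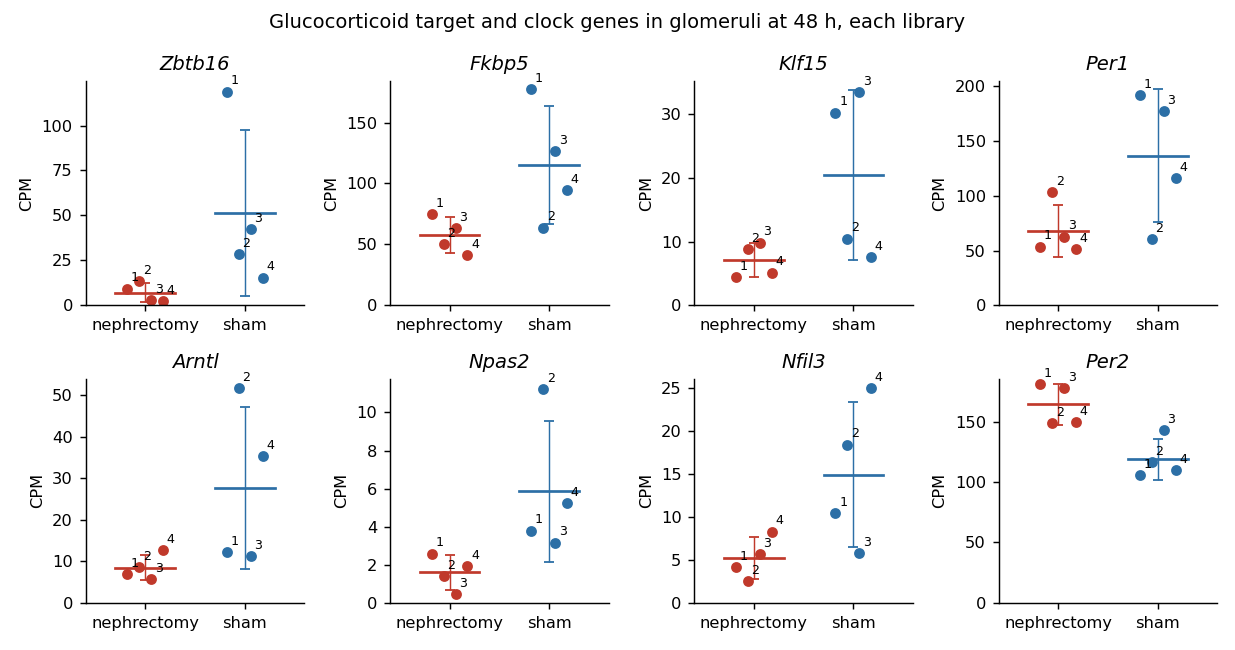
CPM of 8 genes in each glomerulus library of 48 h, nephrectomy in red on the left and sham in blue on the right; numbers are replicate numbers, horizontal lines are means and error bars are SD (n = 4 each). Zbtb16 and Npas2 have every nephrectomy library below every sham library, Per2 every nephrectomy library above, and the other genes overlap.

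The 48 h difference departed from that at the other times in 2 genes by the test. The effect at 48 h was compared with the mean of the effects at 24 and 72 h, which use other libraries, and 2 of 22405 genes passed (0.00893%), Fkbp5 and Zbtb16, both lower at 48 h. At an unadjusted p under 0.05 there were 352 genes (1.57%). For Fkbp5 the log2 fold change of nephrectomy over sham was 2.48 at 24 h, -1.01 at 48 h and 1.88 at 72 h, and the 48 h effect differed from the mean of the others by -3.19 ± 0.45 (edgeR adjusted p = 0.0037). For Zbtb16 the 3 values were 2.71, -2.89 and 2.88, a difference of -5.69 ± 0.95 (edgeR adjusted p = 0.030). Fkbp5 passed in 14 of 15 alternative fits and lost the call with the sham library of 24 h that carried tubule markers included (adjusted p = 0.36). Zbtb16 passed in 7 of the 15. It lost the call without nephrectomy replicate 1, 3 or 4 or sham replicate 1 or 3 (adjusted p of 0.054 to 0.23), with RLE size factors (0.0504) and with that sham library (0.36). With the replicate number as a block Zbtb16 had an adjusted p of 0.23, Fkbp5 kept its call and Fam111a gained one (0.037).

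The level of each gene by surgery and time was as follows. Fkbp5 in nephrectomy glomeruli averaged 146 ± 75.9 CPM at 24 h, 57.4 ± 14.8 at 48 h and 103 ± 22.2 at 72 h (SD, n = 4 each). In sham glomeruli it averaged 26.1 ± 4.32 CPM at 24 h (n = 3), 115 ± 48.5 at 48 h and 27.9 ± 6.36 at 72 h (n = 4 each). Zbtb16 in nephrectomy glomeruli averaged 24.8 ± 11 CPM at 24 h, 6.92 ± 5.35 at 48 h and 24.5 ± 18.9 at 72 h. In sham glomeruli its mean was 3.69 ± 2.24, 51.3 ± 46.4 and 3.3 ± 1.85 CPM at the same times. For both genes the lowest sham library of 48 h (63.7 CPM for Fkbp5, 15.3 CPM for Zbtb16) lay above the highest sham library of 24 h (30.8 and 5.23 CPM) and of 72 h (36.7 and 5.03 CPM). The sham level of 48 h, and not the nephrectomy level alone, therefore enters each of these differences. The sources used here give no hour of day for any rat.

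Over the whole glucocorticoid list 14 of 15 members lay above 0 at 24 h, 1 at 48 h and 12 at 72 h, with medians of 0.93, -0.35 and 0.54. Over all genes 51.7%, 44.9% and 51.9% lay above 0 at these times. At 48 h the median of the same members was -0.40 in S1 tubules and -0.51 in whole kidney, so in all 3 tissues it lay below 0. Klf15 and Fam111a (edgeR adjusted p = 0.13 each) and Nfil3 (0.16) did not pass the test between times. DESeq2 called Klf15, Fam111a and Nfil3, among 12 genes.

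**Figure D2:**
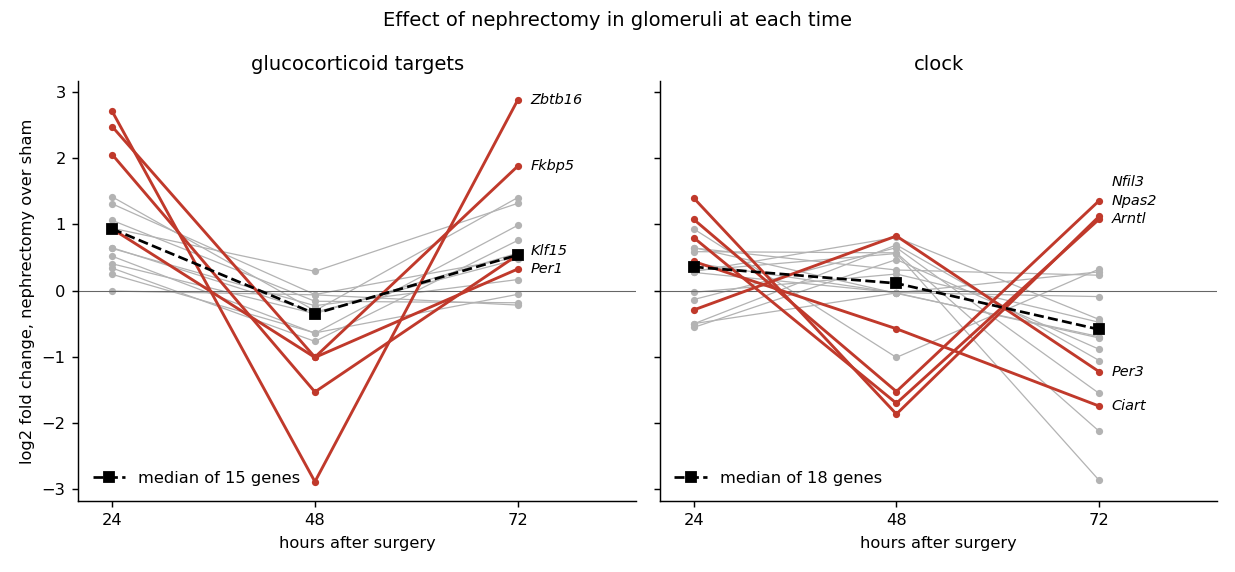
Log2 fold change of nephrectomy over sham in glomeruli at 24, 48 and 72 h for the glucocorticoid targets (left) and clock genes (right); each line is a gene, red lines are named and the dashed line is the median. The glucocorticoid medians are 0.93, -0.35 and 0.54, with Zbtb16 and Fkbp5 above 0 at 24 and 72 h and below 0 at 48 h.

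The circadian clock is a feedback loop in which Arntl (Bmal1), paired with Clock or Npas2, drives the Period, Cryptochrome, Rev-erb (Nr1d1, Nr1d2) and PAR bZIP (Dbp, Tef, Hlf) genes. Rev-erb proteins in turn repress Arntl through ROR response elements, and Nfil3 competes with the PAR bZIP activators at D-boxes. Of 18 clock genes measured 0 passed, 9 lay on each side of 0, and 5 had an unadjusted p under 0.05 (1.36% of all genes did). Within 250 bases before the RefSeq start (GRCr8), 16 of the 18 genes had a sequence, and the 2 shown here stand for the loop's opposite arms, Arntl with a ROR element and Per2 with a D-box, each in capitals.
Arntl, chr1:176766078-176766327, plus strand, listed as Bmal1: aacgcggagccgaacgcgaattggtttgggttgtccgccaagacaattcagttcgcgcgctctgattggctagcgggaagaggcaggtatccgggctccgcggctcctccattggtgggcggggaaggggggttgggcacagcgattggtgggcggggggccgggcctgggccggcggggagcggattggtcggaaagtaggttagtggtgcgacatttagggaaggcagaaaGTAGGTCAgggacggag
Per2, chr9:99496994-99497243, minus strand: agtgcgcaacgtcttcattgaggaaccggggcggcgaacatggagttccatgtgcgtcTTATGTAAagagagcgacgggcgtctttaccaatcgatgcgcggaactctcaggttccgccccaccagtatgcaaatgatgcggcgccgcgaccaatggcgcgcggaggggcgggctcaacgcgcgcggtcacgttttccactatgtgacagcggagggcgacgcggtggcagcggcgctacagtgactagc
The motif GTAGGTCA begins 17 bases before the Arntl start and was found in 0.508% of 33469 such promoters on either strand. TTATGTAA begins 192 bases before the Per2 start and was found in 0.828%. The E-box CACGTG (5.59% of promoters) was found in Tef, Bhlhe40, Bhlhe41 and Ciart and in neither printed sequence. These matches describe letters only.

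In the activator arm, Arntl had 6.91, 8.52, 5.78 and 12.6 CPM after nephrectomy, against 12.2, 51.6, 11.2 and 35.3 CPM after sham surgery (-1.71 ± 0.54). Its sham replicates 2 and 4 stood well above all other libraries, and sham replicates 1 and 3 were just under the highest nephrectomy library. Npas2 had 2.59, 1.40, 0.463 and 1.94 CPM after nephrectomy, against 3.79, 11.2, 3.16 and 5.24 CPM after sham surgery, with no overlap (-1.87 ± 0.61). Nfil3 had 4.21, 2.54, 5.67 and 8.31 CPM after nephrectomy, against 10.5, 18.4, 5.83 and 25 CPM after sham surgery (-1.53 ± 0.46). For Nfil3 too, sham replicates 2 and 4 were the highest libraries.

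In the repressor and output arms the nephrectomy values were the higher ones for several genes. Per2 had 181, 149, 178 and 149 CPM after nephrectomy, against 106, 116, 143 and 110 CPM after sham surgery, without overlap (0.47 ± 0.23). Per3 had 287, 230, 273 and 118 CPM after nephrectomy, against 199, 101, 124 and 87.9 CPM after sham surgery (0.83 ± 0.37). Per1, described above, was lower after nephrectomy (-1.01 ± 0.46). Nr1d2 was at 0.81 ± 0.43, Tef at 0.65 ± 0.39, Hlf at 0.69 ± 0.54 and Dbp at 0.57 ± 0.63. Per2 differed from its effect at the other times by 1.19 ± 0.29 and Per3 by 1.59 ± 0.45, and neither passed (edgeR adjusted p of 0.63 and 1), though DESeq2 called Per2 (adjusted p = 0.048).

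The sham libraries did not share one clock state. Nr1d1 had 177, 12.9, 214 and 15.8 CPM in sham libraries 1 to 4, and Dbp had 96.1, 14.2, 126 and 15.7 CPM. The nephrectomy libraries had 133, 82.5, 132 and 59.2 CPM for Nr1d1 and 125, 95, 115 and 38.6 CPM for Dbp. The log2 fold change of Nr1d1 was -0.04 ± 0.59, and its sign turned under several settings, among them the replicate block (0.83). Sham replicates 1 and 3 paired low Arntl with high Nr1d1 and Dbp, and sham replicates 2 and 4 the reverse. Nephrectomy replicates 1 to 3 were on the side of sham replicates 1 and 3, with nephrectomy replicate 4 in between. Klf15 and Per1 followed the same split among sham libraries. Its part in the differences above was not tested.

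**Figure D3:**
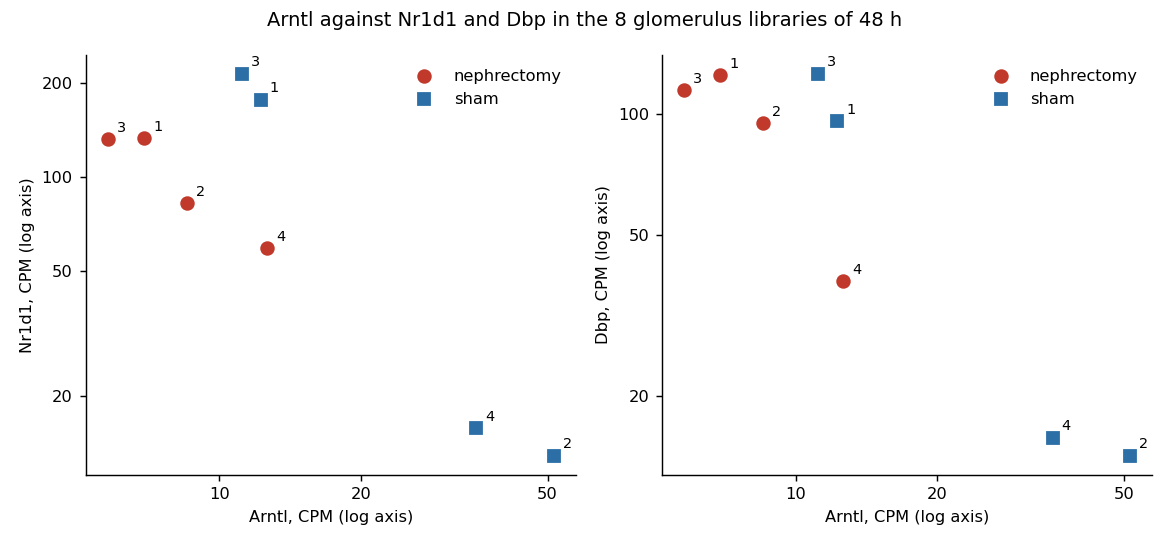
CPM of Arntl (x, log axis) against Nr1d1 and Dbp (y, log axis) in the 4 nephrectomy (red circles) and 4 sham libraries (blue squares) of glomeruli at 48 h, with replicate numbers. Sham replicates 2 and 4 have Arntl at 51.6 and 35.3 CPM with the lowest Nr1d1 and Dbp, apart from the other 6 libraries.

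Fam111a, which encodes a protease tied to DNA replication in human cells, had the smallest unadjusted p at 48 h among the genes named. It had 3.67, 5.85, 6.82 and 6.37 CPM after nephrectomy, against 8.75, 191, 282 and 290 CPM after sham surgery. All nephrectomy libraries were low, and sham replicate 1 was nearly as low while the other 3 sham libraries were far higher. The log2 fold change was -5.08 ± 1.05, with an edgeR adjusted p of 1 and a DESeq2 adjusted p of 0.0023. Over the 23 glomerulus libraries 7 had 11.8 CPM or less and 16 had 18.5 CPM or more. The low ones also included 1 nephrectomy and 1 sham library of 72 h. Nephrectomy replicate 2 of 24 h, at 18.5 CPM, was the lowest of the 16. Sham replicate 3 of 72 h, the next library up, had 114 CPM, so the widest gap on a log scale lay between these.

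A like order by library number was found in the other tissues. In S1 tubules Fam111a had 3.67, 4.02, 4.52 and 9.06 CPM after nephrectomy, against 3.07, 24, 15.2 and 41.4 CPM after sham surgery. In whole kidney it had 2.7, 2.6, 5.23 and 18.6 CPM after nephrectomy, against 1.57, 40.4, 35.4 and 93.5 CPM after sham surgery. Sham replicate 1 was the lowest sham library in all 3 tissues. For Arntl, sham replicates 2 and 4 were the highest libraries in all 3 tissues, and for Zbtb16 sham replicates 1 and 3 were. No source used here ties libraries of equal number to 1 rat.

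**Figure D4:**
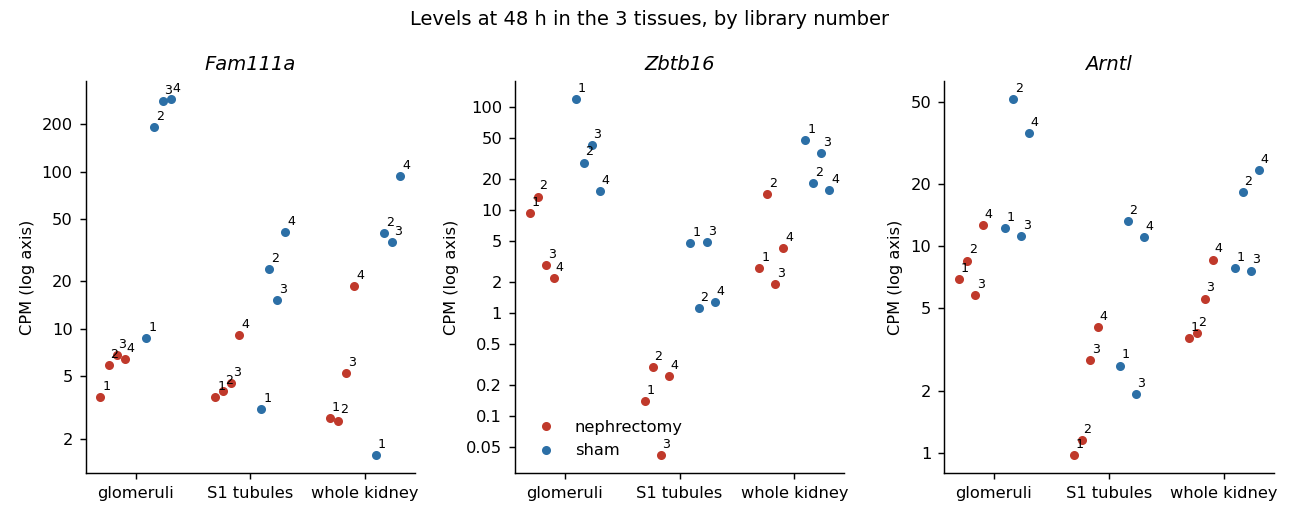
CPM (log axis) of Fam111a, Zbtb16 and Arntl at 48 h in glomeruli, S1 tubules and whole kidney, with nephrectomy in red on the left and sham in blue on the right of each tissue and replicate numbers beside the points. Sham replicate 1 is the lowest sham library for Fam111a in each tissue, at 8.75, 3.07 and 1.57 CPM.

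Further genes with low nephrectomy values included 2 class I histocompatibility genes. RT1-T24-3 had 16.2, 15, 48.5 and 17.9 CPM after nephrectomy, against 103, 86.8, 20 and 63 CPM after sham surgery (-1.49 ± 0.51), with nephrectomy replicate 3 above sham replicate 3. RT1-CE4 had 31.2, 48.1, 39.9 and 75.3 CPM after nephrectomy, against 133, 94.9, 74.4 and 63.6 CPM after sham surgery (-0.91 ± 0.34). Rat class I genes have near-identical copies and differ between animals, so the values of both are uncertain. Igfbp3, a carrier of insulin-like growth factors, had 48.7, 25.4, 33.7 and 19.6 CPM after nephrectomy, against 55.1, 154, 51 and 43.9 CPM after sham surgery (-1.25 ± 0.44, and -0.60 without sham replicate 2). Galnt15, a glycosyltransferase, had no overlap (3.24, 6.36, 4.51 and 3.53 CPM, against 9.33, 8.62, 24.5 and 11 CPM after sham surgery). Gstt3, a glutathione transferase, was at -0.79 ± 0.29, and S100a9, a neutrophil protein, at -2.76 ± 1.04. Sham replicate 3 had 31.6 CPM of S100a9, and without it the value was -1.05.

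On the other side, Tgfa, a ligand of the EGF receptor, had 50.5, 55.8, 56.3 and 42.1 CPM after nephrectomy, against 27.1, 26.9, 21 and 40.5 CPM after sham surgery. Its groups did not overlap, though nephrectomy replicate 4 and sham replicate 4 were close (0.82 ± 0.35). Bmp2, a bone morphogenetic protein, had 73.6, 86, 81.3 and 149 CPM after nephrectomy, against 35.6, 69.5, 49.5 and 58.3 CPM after sham surgery (0.87 ± 0.32). Srp9, a subunit of the signal recognition particle, had 47.8, 49.6, 81.7 and 93.2 CPM after nephrectomy, against 31.3, 32.6, 34.8 and 40.5 CPM after sham surgery (0.97 ± 0.34). Ddah1, which degrades an inhibitor of nitric oxide synthase, had 58.2, 44.6, 67 and 113 CPM after nephrectomy, against 31.7, 19.4, 49.5 and 24 CPM after sham surgery (1.19 ± 0.36). Only sham replicate 3 of Ddah1 reached the nephrectomy range. Cnn1, a smooth muscle calponin, had 7.56, 2.54, 8.56 and 13.4 CPM after nephrectomy, against 4.76, 0.982, 2 and 2.99 CPM after sham surgery (1.57 ± 0.58). Gem, a small GTPase, was at 1.52 ± 0.64. Astn1, Mmachc, Tmem165, Flvcr2, Cdhr5 and Chrnb1 lay between 0.65 and 1.11. Artn, a neurotrophic ligand of the GDNF family, had 1.08, 0.381, 8.1 and 29.3 CPM after nephrectomy, against 1.07, 0.654, 0.666 and 4.4 CPM after sham surgery (2.49 ± 1.01, and 0.89 without nephrectomy replicate 4). Of the 12 genes named on the higher side, Srp9, Mmachc, Bmp2, Tmem165 and Chrnb1 had groups without overlap. The 12 were picked by the smallest p in these same libraries, so such groups are no added support. Among genes of at least 5 CPM, 1.04% had nephrectomy higher without overlap.

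Podocyte genes held no call between the surgeries. Of 31 measured 0 passed, 26 lay above 0, and the median was 0.11, with 0 members whose groups did not overlap. Over all genes tested, 0.763% had nephrectomy higher without overlap and 1.29% had it lower, so 0 of 31 is near that share. Nphs1 was at 0.28 ± 0.35 and Podxl (podocalyxin) at 0.10 ± 0.32. Among 12 podocyte transcription factors 9 lay above 0 with a median of 0.25. Tcf21, needed for podocyte development, was at 0.75 ± 0.42, and Klf15, described above, was the lowest. Of 24 endothelial genes 8 lay above 0 (median -0.11). Kdr, the main VEGF receptor, had 2822, 1707, 2400 and 2253 CPM after nephrectomy, against 1978, 3316, 2251 and 3187 CPM after sham surgery (-0.23 ± 0.29). Sox17, an endothelial transcription factor, was the 1 endothelial gene of 24 without overlap (1.04% of genes of at least 5 CPM had nephrectomy higher without overlap), with 229, 173, 251 and 272 CPM after nephrectomy against 149, 120, 162 and 171 CPM after sham surgery (0.62 ± 0.34).

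Among the signals between these cells, Vegfa, which podocytes send to the endothelium, had 1559, 1820, 1637 and 1345 CPM after nephrectomy, against 1094, 1609, 992 and 1483 CPM after sham surgery (0.30 ± 0.32), and 10 of 24 genes of its pathway lay above 0. Of 22 mesangial and smooth muscle genes 11 lay above 0, with Acta2 (smooth muscle actin) at 0.68 ± 0.42. Basement membrane genes had a median of 0.10 with 12 of 16 above 0. Actin cytoskeleton and adhesion genes, which build foot processes and contractile fibres, had 27 of 28 members above 0 and a median of 0.20, with 0 past the test. Tpm1 (tropomyosin) was at 0.52 ± 0.35 and Vim (vimentin) at 0.47 ± 0.29. At 24 and 72 h 22 and 15 of these 28 lay above 0. The share above 0 among genes of at least 5 CPM was 55.9%.

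Growth and cell cycle genes lay on both sides of 0 in glomeruli. Of 39 DNA replication and mitosis genes 0 passed and 21 lay above 0, with a median of 0.04. The medians were 0.99 in S1 tubules and 1.46 in whole kidney at 48 h. The glomerular median ran from -0.41 to 0.2 when 1 library was left out. Library means of this list spread from 2.48 to 3.84 log2 CPM after nephrectomy, against 2.79 to 3.35 after sham surgery. Mki67, a marker of dividing cells, had 26, 11.3, 36.6 and 93.5 CPM after nephrectomy, against 42, 32.3, 36.1 and 52.8 CPM after sham surgery. Nephrectomy replicate 4 was the highest library and nephrectomy replicate 2 the lowest, and the log2 fold change of 0.04 ± 0.44 turned negative without replicate 4 (-0.73). In S1 tubules Mki67 was at 1.21, and the difference between the segments of -1.15 ± 0.71 did not pass (edgeR adjusted p = 1). Immediate early genes, the first to answer a signal, had 16 of 21 members above 0 and a median of 0.43, which dropped to 0.049 when nephrectomy replicate 2 was left out and to 0.21 when either nephrectomy replicate 4 or sham replicate 3 was. Fosb, a member, had 7.56, 148, 20.1 and 35.4 CPM after nephrectomy, against 33.4, 22.7, 10.2 and 45.9 CPM after sham surgery, highest in nephrectomy replicate 2. Other members included Nr4a2 at 0.95 ± 0.46 and Fosl1 without overlap (1.16 ± 0.58). Myc was at 0.65 ± 0.42. Cholesterol synthesis genes had 20 of 25 above 0 (median 0.26), with Sqle at 0.65 ± 0.39 and Idi1 at 0.65 ± 0.55, and 0 past the test. Without nephrectomy replicate 4 the cholesterol median was 0.037, Sqle was at 0.35 and Idi1 at 0.32. The median was also 0.13, 0.082 and 0.15 without sham replicate 1, 2 or 3.

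**Figure D5:**
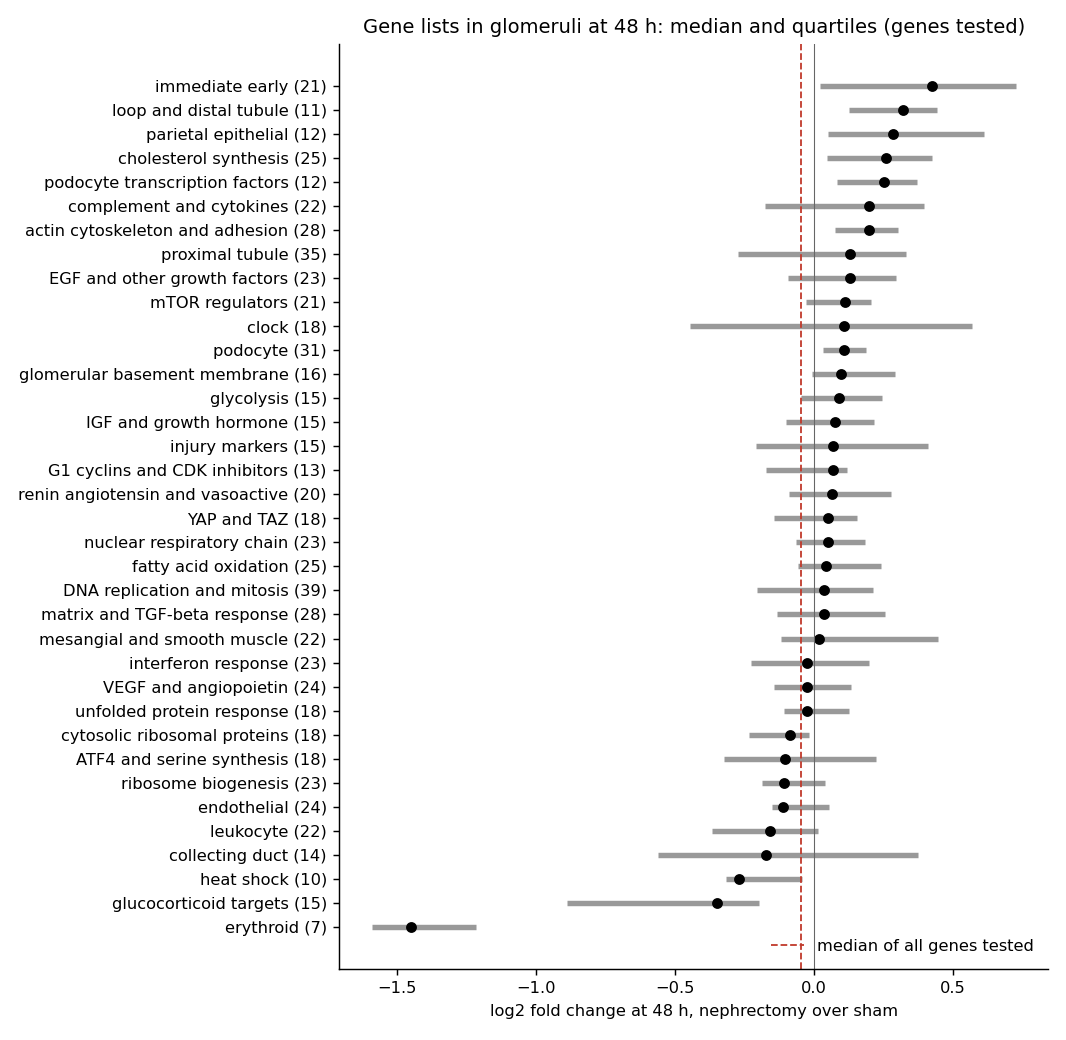
Median (point) and quartiles (bar) of the log2 fold change of nephrectomy over sham in glomeruli at 48 h for 36 gene lists, with the number of genes tested in brackets and the median of all genes as a dashed line. Erythroid genes (-1.45) and glucocorticoid targets (-0.35) lie lowest and immediate early genes (0.43) highest; without sham replicate 3 the erythroid median is -0.70, and without nephrectomy replicate 2 the immediate early median is 0.049.

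Between the segments, 0 of 24488 genes (0%) had a 48 h effect that differed between glomeruli and S1 tubules by edgeR, with 391 at an unadjusted p under 0.05 (1.6%). DESeq2 called 5, U6, Prl7a3, LOC680646, Tas2r130 and Olr505. The genes nearest to passing on the higher side were Rergl, a Ras-related gene (glomeruli minus S1 4.45 ± 1.41), and Nr4a2, an orphan nuclear receptor (2.33 ± 0.83). On the lower side they were Lrrc75b (-1.38 ± 0.42) and Phlda1 (-1.30 ± 0.48). The larger part of each of these differences lay in S1 tubules, by the least for Nr4a2. Rergl was at 0.75 in glomeruli and -3.68 in S1, Lrrc75b at -0.37 and 1.04, and Phlda1 at 0.17 and 1.49. Nr4a2 had 36, 64.1, 29.6 and 35.2 CPM after nephrectomy, against 16.9, 30.8, 14.2 and 23.4 CPM after sham surgery in glomeruli, where its effect was 0.95 against -1.36 in S1. Zbtb16 was low after nephrectomy in both segments (-2.89 and -3.66). Its S1 value rests on levels near 0, with 0.139, 0.3, 0.0419 and 0.244 CPM after nephrectomy. The sham libraries of S1 had 4.73, 1.12, 4.89 and 1.28 CPM. Fkbp5 was at -1.01 in glomeruli and 0.25 in S1 tubules, a difference of -1.24 ± 0.60 that did not pass (edgeR adjusted p = 1).

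Markers of blood and tubule cells varied widely between libraries. Erythroid genes had 0 of 7 members above 0 and a median of -1.45, and Hbb (beta globin) had 18.9, 0.89, 18.3 and 104 CPM after nephrectomy, against 8.85, 8.4, 267 and 168 CPM after sham surgery, highest in sham replicates 3 and 4. Sham replicate 3, the shallowest of the 8, also held the S100a9 value given above, and S100a8, the partner of S100a9, was at -2.53 ± 1.39, and at -0.65 without that library. Without it the erythroid median was -0.70. Of 22 leukocyte genes 6 lay above 0 (median -0.16). Loop and distal tubule markers summed to 5.23 to 1120 CPM after nephrectomy, against 414 to 892 CPM after sham surgery, with nephrectomy replicate 4 nearly free of them. Calb1, a distal tubule calcium-binding protein, was at 1.68 ± 0.76 through nephrectomy replicate 1 alone and at -0.49 without it. The part of these admixed cells in the results above was not tested, apart from the tubule marker covariate. Of 15 injury genes 10 lay above 0, with a median of 0.07. Lcn2, a secreted injury marker, had 11.1, 20, 14 and 7.74 CPM after nephrectomy, against 10.1, 1.96, 3.16 and 5.61 CPM after sham surgery (1.33 ± 0.85).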

How the data were processed

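Per the labels' protocols, glomerulus RNA came from a Zymo kit, was amplified by the NuGEN Ovation RNA-seq V2 system and gave single-end reads. The authors deposited whole-number gene counts, and the submitters' processing notes name HTSeq, SAMtools, STAR 2.4.0.1 and Trimmomatic 0.32. The sources used here do not state build, annotation or strand setting, so values of overlapping or near-identical genes are uncertain. They also deposited RPKM values, used in 1 alternative with pseudocounts of 1 and 0.1 on the log2 scale. The 5 HTSeq summary entries stayed out of totals and tests. No molecular identifiers mark amplified fragments.

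Tests ran in R 4.3.3 with edgeR 4.0.16 (TMM, filterByExpr with a minimum count of 10, quasi-likelihood F test), with limma 3.58.1 and DESeq2 1.42.0 as alternatives, and Benjamini-Hochberg adjustment over all genes tested. One fit held 23 glomerulus libraries with a mean for each of 6 groups of surgery and time, and another 46 libraries of glomeruli and S1 tubules. SE was taken as the absolute log2 fold change over the root of F, and CPM are scaled by TMM. The code was tested on simulated counts. Of 32545 genes 22405 were tested. Replicate libraries were checked not to be copies (chi-square per degree of freedom of 17.2 to 39.6).

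The labels do not tie replicate numbers to a shared day or animal. Over 10723 genes, deviations of same-numbered nephrectomy and sham libraries from their group means correlated at 0.232, 0.2, 0.113 and 0.217, all over 0.1, so the number was also used as a block. Numbers 1 and 2 matched each other best, as did 3 and 4, and a block of these pairs was added after seeing the data.

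Genes were named by rule from symbols of 1 ID with a mean of at least 5 CPM: the 12 on each side with the smallest unadjusted p at 48 h, since 0 passed; those past the threshold, or the 2 with the smallest p of each sign, for the difference between times and between segments; the members of a list with the lowest p, at most 4 and with no CPM minimum; and fixed genes, of which those not described are covered by the list counts. Some genes are not reported here. Genes named for groups without overlap, and Fosb, were picked after their values were seen, also with no CPM minimum. Bhlhe40, Cd34, Clock, Cry1, Egr1 and Fos were among the genes left without fold changes in the text after their signs were seen to change between settings. The comparison, lists and rules were chosen with earlier results of these data known.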

Additional observations from a re-analysis of the deposited data

Results flagged for a closer look

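In a group of 4 libraries, a library was marked when its gap to the nearest other library was too large a part of the group's range by Dixon's critical value, which chance gives in about 1 in 20 groups. Among nephrectomy libraries, Bmp2 was 149 CPM in replicate 4, against 73.6 to 86 in the others, and RT1-T24-3 was 48.5 CPM in replicate 3, against 15 to 17.9. The mean log2 CPM of the endothelial markers was 8.69 in nephrectomy replicate 2, against 9.13 to 9.14 in the others. Among sham libraries, Artn was 4.4 CPM in replicate 4 (0.654 to 1.07 in the others), Igfbp3 was 154 CPM in replicate 2 (43.9 to 55.1), Galnt15 was 24.5 CPM in replicate 3 (8.62 to 11) and S100a9 was 31.6 CPM in replicate 3 (1.74 to 4.12).

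The effect at 48 h differed from the mean effect at 24 and 72 h, by a test of that difference, for Zbtb16 (-5.69 on the log2 scale) and Fkbp5 (-3.19).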

How the results depend on the processing

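No gene passed at 48 h in any edgeR or limma fit, and DESeq2 called 2. The count of genes differing between times was 1 with RLE size factors, 0 with all 24 glomerulus libraries, 12 by DESeq2 and 1 to 3 when a 48 h library was left out. Without nephrectomy replicate 3 of 72 h, a fit not planned at the start, it was 2 (Zbtb16 and Fkbp5). Between segments DESeq2 called 5 genes. With the replicate block the counts were 0 at 48 h, 2 between times, with Fam111a in place of Zbtb16, and 0 between segments, and no other call differed under the block. The block of numbers 1 and 2 against 3 and 4, added after seeing the data, gave 0 and 3. Values near 0 changed sign under some settings. Mki67 was at -0.33 with the replicate block, -0.21 with the block of paired numbers, -0.33 in the 48 h libraries alone with a replicate block, -0.47 with voom weights, and -0.24 and -0.39 on RPKM with pseudocounts of 1 and 0.1. It ran between -0.73 and 0.35 when a library was left out. Nr1d1, at -0.04, was at 0.0080 with no filter on low counts, 0.83 with the replicate block, 0.77 in the 48 h libraries alone with a replicate block, 0.46 with voom weights, 0.70 and 0.78 on RPKM with pseudocounts of 1 and 0.1, 0.033 with the tubule covariate, 0.019 without mitochondrial genes, and between -0.35 and 0.57 when a library was left out. Sgk1 was at 0.020 with the tubule covariate and between -0.15 and 0.087 with a library left out, Podxl between -0.0023 and 0.25, and Calb1 between -0.49 and 2.08. Leaving out 1 library also moved these by over 1.5 times towards 0 or past it: Tcf21 to 0.40 (nephrectomy replicate 3), Acta2 to 0.45 (nephrectomy 4), Ccl2 to 0.87 and Dusp1 to -0.19 (nephrectomy 1), Nphs1 to 0.13 (nephrectomy 2), Vegfa to 0.19 and Hbb to -0.80 (sham 3), Ddit4 to -0.39 and Hsd11b1 to -0.34 (sham 1), Dbp to 0.31, Il33 to 0.27 and Kdr to -0.060 (sham 2), Pdk4 to 0.14 (nephrectomy 3), Klf9 to -0.090 (sham 4), the leukocyte median to 0.078 (nephrectomy 2), the podocyte transcription factor median to 0.15 (sham 3) and the actin median to 0.071 (nephrectomy 4). Other list medians moved too. With 1 library left out, the podocyte median fell as low as 0.026 and the basement membrane median to 0.017. The ribosome biogenesis median came to -0.023. The endothelial median reached 0.059 and the DNA replication and mitosis median -0.41, both past 0. The cause was not tested. The glucocorticoid median stayed between -0.72 and -0.29 and the actin median between 0.071 and 0.36 over all alternatives, and 12 of 828 list medians moved beyond the replicate spread. All settings chosen at the start were run.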

Other observations

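Of the other gene groups in glomeruli at 48 h, 0 members passed the test in those given here. Unfolded protein response genes, which were at a median of 0.93 at 24 h, were at -0.03 at 48 h, with 8 of 18 above 0. Heat shock genes were at -0.27 with 3 of 10 above 0, though at 0.045 without sham replicate 4, and ribosome biogenesis genes at -0.11 with 8 of 23 above 0. Interferon response genes were at -0.02 with 10 of 23 above 0. Complement and cytokine genes had a median of 0.20 with 14 of 22 above 0, and of 0.052 without nephrectomy replicate 4. Among them Ccl2, which draws monocytes, had 11.7, 7.25, 2.89 and 2.96 CPM after nephrectomy, against 2.72, 2.07, 4.83 and 0.468 CPM after sham surgery (1.33 ± 0.62), and Il33, an alarmin, had groups without overlap (0.43 ± 0.28). Pycr1, of proline synthesis, had 0.432, 0, 0.463 and 0.683 CPM after nephrectomy, against 1.56, 1.20, 1.83 and 2.90 CPM after sham surgery. None of these genes passed the test.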
